A study of Homo sapiens with 6 samples.

Results

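Glycolysis and the fate of pyruvate were followed enzyme by enzyme in DU-145-DR/tet-MUC1shRNA cells, with and without doxycycline (DOX). The members are 40 genes listed by name, from glucose uptake to lactate export or entry of pyruvate into mitochondria. All 40 were among the 28008 rows of the count table, and they were arranged here into 18 steps. DU-145 is an established human prostate cancer line, and the DR derivative was selected for resistance to docetaxel (DTX). The cells carry a hairpin against MUC1 whose expression is switched on by DOX. Poly(A)-selected RNA was sequenced from 3 DOX_negative cultures, given the DMSO vehicle, and from 3 DOX_positive cultures, given 500 ng/ml DOX. Treatment in the study lasted 7 days, and both groups are DTX-resistant. In the treatment labels the hairpin is given only for DOX_positive samples, so the DOX_negative cells were taken as the same line from the titles and the study. Each difference below therefore holds the effect of the drug DOX, that of silencing MUC1 and any effect of the hairpin on other transcripts. These cannot be told apart here, and cells with a control hairpin and DOX were not analysed. In bulk RNA, fewer cells of a type and less RNA per cell cannot be told apart.

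In glycolysis, glucose is phosphorylated, split into triose phosphates and oxidised to pyruvate with a net gain of ATP and NADH. Pyruvate is then either reduced to lactate by lactate dehydrogenase, which returns NAD+, and exported, or carried into mitochondria and converted to acetyl-CoA by the pyruvate dehydrogenase complex. Many tumour cells send much of their pyruvate to lactate even when oxygen is present, and many of the steps can be served by several isoenzymes encoded by different genes.

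The libraries held between 15092691 and 23243713 counts, and the floor used for detection, 3 counts, lay at 0.129 to 0.199 CPM (read counts scaled to a common library size). MUC1 itself was at 21.3, 24.8 and 19.7 CPM without DOX and at 3.27, 3.87 and 4.44 CPM with DOX. Its groups did not overlap (log2 fold change -2.52, SE 0.146, adjusted p = 4.47e-11; n = 3 per group here and throughout). Values are given in the order of replicates 1 to 3. Adjusted p-values are Benjamini-Hochberg values from edgeR's quasi-likelihood test over all 14292 genes tested, and a gene is said to have risen or fallen where this value was under 0.05. All 5 epithelial markers (KRT8, KRT18, KRT19, EPCAM and CDH1) were detected. The epithelial markers rose together, with a summed level between 758 and 838 CPM without DOX and between 1444 and 1517 CPM with DOX. Summed leukocyte and endothelial markers were at or under 0.959 CPM in every library, and fibroblast markers were between 4.05 and 5.69 CPM. What the rise of the epithelial markers has to do with the members was not tested.

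Of the 40 members, 39 had enough counts to be tested and 15 passed the threshold, of which 6 rose and 9 fell. That is 38.5% of the members tested, beside 26.7% of all genes tested, where 13.0% rose and 13.7% fell. CPM values of the groups did not overlap for 21 members (53.8%), beside 39.8% of all genes. The members were listed with earlier results of these data known and were not matched to all genes by level. Both pairs of shares are therefore descriptions only. The median log2 fold change of the members was -1.26e-05, beside -0.00336 for all genes. The largest changes were falls. PGAM1, ADPGK and LDHA each lost over 1 log2 unit, while HK2, the member with the largest rise, gained 0.74. Among the 16 genes of the reactions from glucose 6-phosphate isomerase to lactate dehydrogenase, 6 fell (37.5%) and 1 rose (6.25%). The 3 PFKFB genes, which make a regulator and of which none passed, are not counted there. Of the 11 genes for entry of pyruvate into mitochondria and its control, 4 rose (36.4%) and 1 fell (9.09%). The rises include PDK1 and PDK3, whose products switch off the pyruvate dehydrogenase complex. Each of these 5 calls was lost when certain single libraries were left out, as were those of GPI, ALDOA and PFKP. The balance of rises and falls depends on the scaling. With libraries scaled to total counts 3 members rose and 11 fell, and with limma on TPM rescaled as described below 2 rose and 10 fell. The median log2 fold change of all genes also moved down in these 2 settings, to -0.038 and -0.025. In all, 3836 and 3094 genes passed there.

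The calls differ in how firmly they stand. When each of the 6 libraries was left out in turn, between 2784 and 3645 of all genes passed, beside 3816 with every library. Of the 15 members, 7 remained past the threshold every time: HK2, ADPGK, PGM2L1, PGAM1, BPGM, ENO2 and LDHA. How many of all called genes remained every time was not counted. The other 8 members, GPI, PFKP, ALDOA, MPC1, DLAT, PDK1, PDK3 and PDK4, lost their call in at least 1 of these fits, and the libraries concerned are named with each gene.

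**Figure D1:**
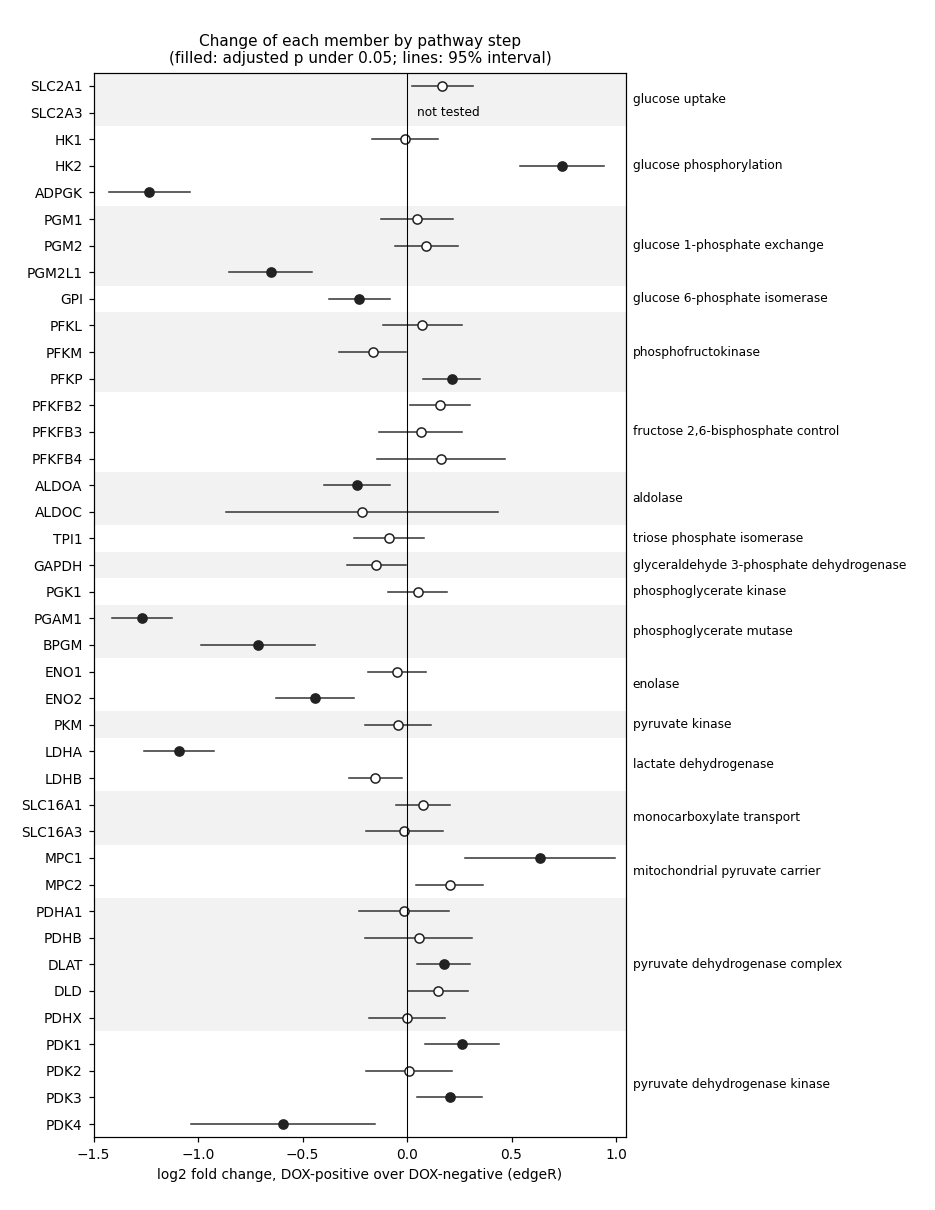
Log2 fold change of the members between DOX-positive and DOX-negative cells (horizontal axis; points, edgeR estimates; lines, 95% intervals; n = 3 libraries per group), ordered by step from glucose uptake at the top to the pyruvate dehydrogenase kinases at the bottom. Filled points passed the threshold; PGAM1, ADPGK and LDHA lie below -1, HK2 and MPC1 lie above 0.5, and SLC2A3 was not tested.

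A 7-base sequence, the heptamer ATCAGTA, recurred in the transcripts of the members that fell most. It came from an earlier scan of 3′UTRs against the fold changes of these same libraries, so its link with lower transcripts is not independent evidence, and its part in the changes was not tested. Of all genes tested with this heptamer in the 3′UTR of the annotated transcript, 394 of 1210 fell, or 32.6%, with a median log2 fold change of -0.11. Of genes with no copy anywhere in the transcript, 1266 of 10303 fell, or 12.3%, with a median of 0.01. The genes with a copy also had longer 3′UTRs, with a median of 3100 bases beside 960 bases. Among the members tested, 10 had a copy in the transcript and 29 had none, beside 2089 and 10303 of all genes tested with an annotated transcript. The copy lay in the 3′UTR for 8 members. ADPGK, PGM2L1, PGAM1, BPGM, LDHA and PDK4 fell, PDK1 rose, and SLC16A1 did not pass the threshold. The median log2 fold change of these 8 members was -0.68. PFKL and PDHX had a copy in the coding sequence only and did not pass the threshold. The remaining 29 members tested had no copy, and 3 of them fell (GPI, ALDOA and ENO2) and 5 rose, with a median of 0.05. The 30-base windows around each 3′UTR copy of these 8 members are shown here because the 6 members that fell most all hold such a copy. They read 5′ to 3′ on the transcript strand, from the GENCODE 29 transcripts on GRCh38, with the heptamer in capitals.
ADPGK: gctccaggatcATCAGTAaatttgtcatgt
PGM2L1, first copy: gagctgctgctATCAGTActtttttccaca
PGM2L1, second copy: aatgaagtgttATCAGTAataaacaggtct
PGAM1: cctttttccatATCAGTAtaataaaggagt
BPGM: gcactattctaATCAGTAgttcactttaat
LDHA: ttgtgaactatATCAGTAgtgtacattacc
PDK4: attgtaaaataATCAGTAtggtttatatgt
PDK1: aaggaagtggaATCAGTAatcacaagtcca
SLC16A1: attttcctagcATCAGTAgatttctggcat

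Each of these copies lies in the last exon. On the plus strand of GRCh38 the heptamers are at chr10:97433412-97433418 in exon 4 of PGAM1, chr7:134679394-134679400 in exon 4 of BPGM, chr11:18407739-18407745 in exon 8 of LDHA and chr2:172602015-172602021 in exon 11 of PDK1. On the minus strand they are at chr15:72751454-72751460 in exon 7 of ADPGK, chr11:74332664-74332670 and chr11:74330337-74330343 in exon 14 of PGM2L1, chr7:95584070-95584076 in exon 11 of PDK4 and chr1:112913347-112913353 in exon 5 of SLC16A1. PGAM1, LDHA and PDK4 hold another copy each in the coding sequence, and BPGM holds another in the 5′UTR that runs into its start codon. The coding copy of PGAM1 is shared by PGAM4, a processed copy of PGAM1 on chromosome X, and the windows are identical; they are shown because reads of this pair are hard to tell apart.
PGAM1, coding: tctacagcaacATCAGTAaggatcgcaggt
PGAM4, coding: tctacagcaacATCAGTAaggatcgcaggt

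**Figure D2:**
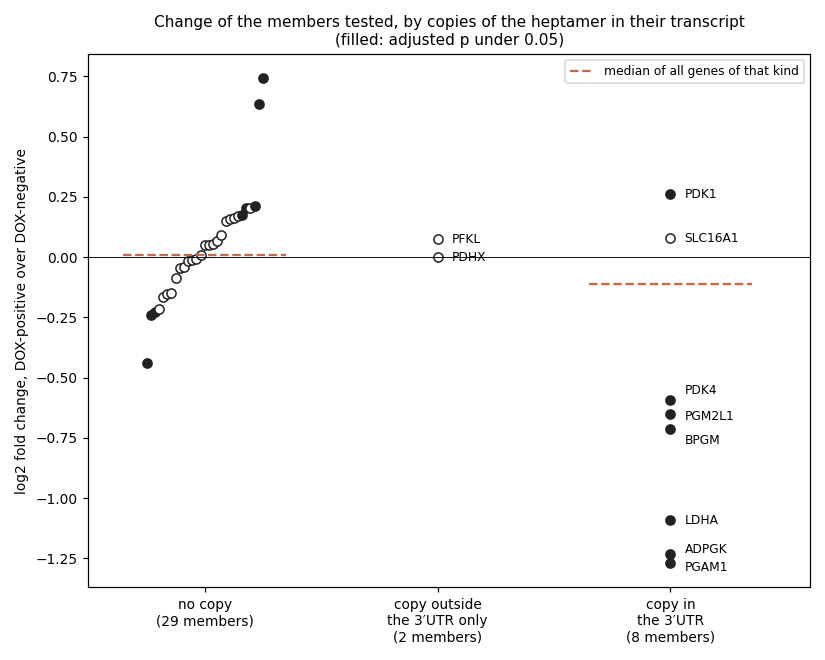
Log2 fold change of the 39 members tested (vertical axis). Members are split by whether their transcript has no copy of the heptamer, a copy outside the 3′UTR only, or a copy in the 3′UTR. Filled points passed the threshold. Dashed lines are the medians of all genes of that kind, drawn only for no copy and for a copy in the 3′UTR. The 6 members with the most negative values are all in the group with a 3′UTR copy, which also holds PDK1 and SLC16A1, both above 0.

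Levels are compared between genes only per length. For this, the deposited TPM values (transcript abundances corrected for length and scaled to a common total) were rescaled in each library without 5 short noncoding RNAs, which held between 34.4% and 64.4% of the deposited TPM. On this scale the member transcripts together made up 1.13% ± 0.041 (SD) of the total without DOX and 0.975% ± 0.056 with DOX. The groups did not overlap, and the exact two-sided permutation p was 0.10, which is the smallest that 3 against 3 libraries allow. Of the single steps, the highest level without DOX was that of glyceraldehyde 3-phosphate dehydrogenase (3367 ± 174 to 2991 ± 88.8 rescaled TPM), followed by pyruvate kinase (1697 ± 92.0 to 1619 ± 174 rescaled TPM) and lactate dehydrogenase (1529 ± 72.0 to 986 ± 65.9 rescaled TPM). The libraries of these neighbours in the order did not overlap, as pyruvate kinase was at 1624, 1800.3 and 1666 rescaled TPM without DOX and 1752, 1422 and 1684 rescaled TPM with DOX and lactate dehydrogenase at 1447, 1555 and 1584 rescaled TPM without DOX and 978, 925 and 1056 rescaled TPM with DOX. Lowest were the fructose 2,6-bisphosphate enzymes (55.7 ± 3.60 to 59.8 ± 2.93 rescaled TPM) and the pyruvate dehydrogenase kinases (47.4 ± 2.30 to 50.2 ± 1.65 rescaled TPM).

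When the counts of each step were summed and the whole table was fitted again, 6 of the 18 steps passed the threshold, beside 26.6% of all rows of that fit. The CPM values of the groups did not overlap for 10 of the 18 steps, beside 39.8% of all rows. Phosphoglycerate mutase fell most (log2 fold change -1.24, SE 0.0667, adjusted p = 1.70e-11), followed by lactate dehydrogenase (log2 fold change -0.73, SE 0.0703, adjusted p = 8.10e-08). Both kept their call whichever library was left out. Aldolase (log2 fold change -0.24, SE 0.0753, adjusted p = 0.0215), glucose 6-phosphate isomerase (log2 fold change -0.23, SE 0.0707, adjusted p = 0.0197) and glucose phosphorylation (log2 fold change -0.20, SE 0.0669, adjusted p = 0.0334) fell by less. The mitochondrial pyruvate carrier was the step that rose (log2 fold change 0.27, SE 0.0775, adjusted p = 0.0139). Each of these smaller calls was lost when certain single libraries were left out. The aldolase call was lost without DOX-negative replicate 3 (adjusted p = 0.104), DOX-positive replicate 2 (adjusted p = 0.111) or DOX-positive replicate 3 (adjusted p = 0.0662). Glucose 6-phosphate isomerase lost its call without DOX-negative replicate 3 (adjusted p = 0.0843) or DOX-positive replicate 2 (adjusted p = 0.111). For glucose phosphorylation the call was lost with the replicate number as a block (adjusted p = 0.0842). With a library left out it was kept only without DOX-positive replicate 1, and the adjusted p ranged from 0.0434 to 0.119 over the 6 fits. The pyruvate carrier lost its call without DOX-negative replicate 1 (adjusted p = 0.0506), DOX-negative replicate 2 (adjusted p = 0.0560) or DOX-positive replicate 1 (adjusted p = 0.0511). A call was gained by 2 steps when a library was left out, glucose uptake without DOX-negative replicate 3 (adjusted p = 0.0117) and phosphofructokinase without DOX-positive replicate 2 (adjusted p = 0.0489).

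**Figure D3:**
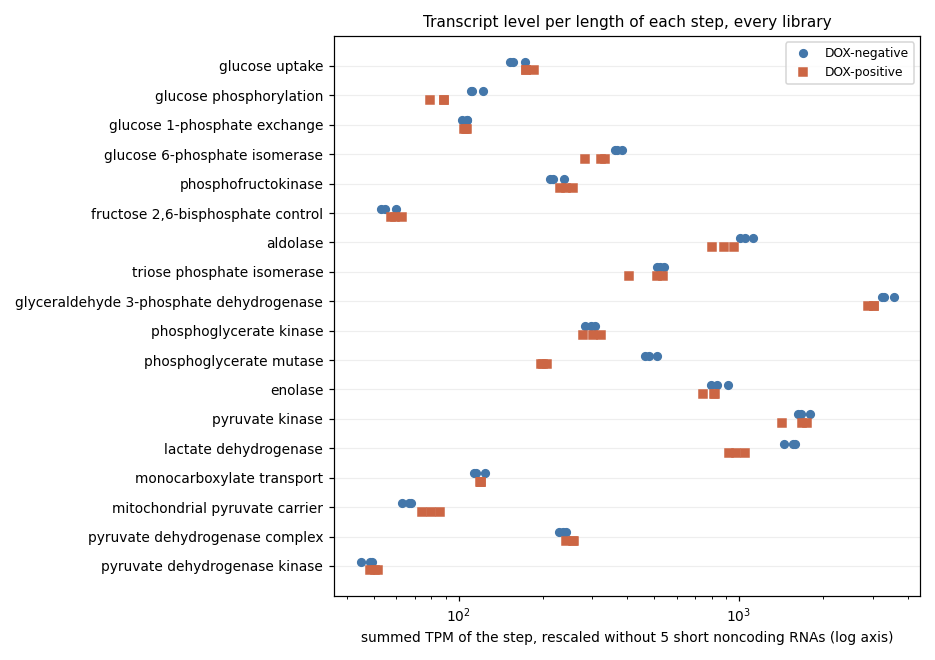
Summed TPM of the members of each step, rescaled without 5 short noncoding RNAs (horizontal log axis), in every library (circles, DOX-negative; squares, DOX-positive). Phosphoglycerate mutase and lactate dehydrogenase show the widest gaps between the groups, with mean levels of 484 and 201 for the first and 1529 and 986 for the second.

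Glucose enters cells through facilitative transporters. SLC2A1, which encodes the widespread transporter GLUT1, was at 199.8, 201 and 234 CPM without DOX and at 252, 232 and 231 CPM with DOX. The groups overlapped, as the highest DOX-negative library lay above the lower DOX-positive ones, and the gene did not pass the threshold (log2 fold change 0.17, 95% interval 0.03 to 0.31, adjusted p = 0.0753). Without DOX-negative replicate 3 it did (log2 fold change 0.25, adjusted p = 0.0119). SLC2A3, which encodes the high-affinity transporter GLUT3, had 0, 3 and 4 counts without DOX and 2, 7 and 2 counts with DOX. It was therefore at or near the floor and was not tested.

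The first reaction traps glucose in the cell as its phosphate. HK1 and HK2 encode hexokinases that use ATP, and ADPGK encodes a glucokinase that uses ADP instead. ADPGK fell, HK2 rose and HK1 did not pass the threshold. ADPGK was at 52.6, 53.5 and 55.1 CPM without DOX and at 25.7, 20.0 and 22.8 CPM with DOX. Every DOX-positive library was below every DOX-negative one (log2 fold change -1.23, SE 0.0934, adjusted p = 2.36e-09), and the gene remained at 42.4% of its DOX-negative mean. HK2 was at 16.5, 17.5 and 16.4 CPM without DOX and at 28.2, 28.7 and 27.5 CPM with DOX. Here every DOX-positive library was above every DOX-negative one (log2 fold change 0.74, SE 0.0964, adjusted p = 5.59e-06). HK1 was at 82.8, 94.9 and 84.6 CPM without DOX and at 89.5, 79.9 and 91.6 CPM with DOX. Its groups overlapped and it did not pass the threshold (log2 fold change -0.01, 95% interval -0.17 to 0.15, adjusted p = 0.953).

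The shares of these genes within the step were separated between the groups as well. Shares are each gene's part of the summed TPM of its step within a library, so that the scaling of the library cancels. The share of ADPGK was 49.0%, 46.3% and 49.8% without DOX and 29.0%, 25.8% and 26.3% with DOX. Per length, ADPGK or HK1 led the step without DOX, and HK1 led in all 3 libraries with DOX. On average in read counts, which are not corrected for length, HK1 led in both groups. There it held 55.3% without DOX and 63.1% with DOX, beside 34.1% and 16.5% for ADPGK. HK1 went from 46.1% ± 1.79 to 60.7% ± 1.36 and HK2 from 5.53% ± 0.114 to 12.3% ± 1.12. The groups did not overlap for any of the 3 genes. For these and all other shares, the exact permutation p was at best 0.10 (adjusted p = 0.22 over the 35 shares), since 3 against 3 libraries cannot give less. In a step of 2 genes the shares are complements, so they give 1 comparison and not 2.

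Glucose 6-phosphate can also be exchanged with glucose 1-phosphate, the entry to glycogen. PGM1 encodes the main phosphoglucomutase, PGM2 a related enzyme that also acts on pentose phosphates, and PGM2L1 the synthase of their cofactor glucose 1,6-bisphosphate. PGM2L1 was at 29.4, 28.3 and 31.8 CPM without DOX and at 18.8, 18.4 and 19.7 CPM with DOX. It fell without overlap (log2 fold change -0.65, SE 0.0958, adjusted p = 2.50e-05), and it is the member with 2 copies of the heptamer in its 3′UTR. PGM2, which held the highest level per length of the 3, was at 71.3, 70.9 and 78.2 CPM without DOX and at 82.6, 75.9 and 76.4 CPM with DOX. The groups of PGM2 overlapped (log2 fold change 0.09, 95% interval -0.06 to 0.25, adjusted p = 0.382), as did those of PGM1 (log2 fold change 0.05, 95% interval -0.13 to 0.22, adjusted p = 0.719).

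Glucose 6-phosphate isomerase (GPI) converts glucose 6-phosphate to fructose 6-phosphate. GPI was at 748, 752 and 824 CPM without DOX and at 715, 592 and 676 CPM with DOX. The groups did not overlap, but the fall was small (log2 fold change -0.23, SE 0.0708, adjusted p = 0.0198). It was lost without DOX-negative replicate 3 (log2 fold change -0.18, adjusted p = 0.0846) or without DOX-positive replicate 2 (log2 fold change -0.16, adjusted p = 0.111).

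Phosphofructokinase is the main control point of the pathway, and its subunits are named after liver (PFKL), muscle (PFKM) and platelets (PFKP). PFKP made up most of the step per length in every library, between 73.6% and 78.6%. PFKP was at 215, 235 and 229.9 CPM without DOX and at 268, 243 and 277 CPM with DOX. It rose slightly (log2 fold change 0.21, SE 0.0654, adjusted p = 0.0182). This call was lost without DOX-negative replicate 1 (adjusted p = 0.121), DOX-positive replicate 1 (adjusted p = 0.0682) or DOX-positive replicate 3 (adjusted p = 0.109). PFKM lay between 54.0 and 59.9 CPM without DOX and between 49.2 and 52.9 CPM with DOX, without overlap, and did not pass the threshold (log2 fold change -0.16, 95% interval -0.33 to -0.00, adjusted p = 0.125). PFKL overlapped (log2 fold change 0.07, 95% interval -0.12 to 0.26, adjusted p = 0.599).

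The PFKFB enzymes make and break fructose 2,6-bisphosphate, the activator of phosphofructokinase. None of the 3 members passed the threshold. PFKFB2, the leading one per length, was at 103, 114 and 99.7 CPM without DOX and at 118, 114 and 122 CPM with DOX. Its groups overlapped (log2 fold change 0.16, 95% interval 0.01 to 0.30, adjusted p = 0.0973), and it passed only without DOX-negative replicate 2 (adjusted p = 0.0307). PFKFB3 (log2 fold change 0.07, 95% interval -0.13 to 0.26, adjusted p = 0.66) and PFKFB4 (log2 fold change 0.16, 95% interval -0.15 to 0.47, adjusted p = 0.462) overlapped as well.

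Aldolase splits fructose 1,6-bisphosphate into 2 triose phosphates. ALDOA made up between 99.7% and 99.8% of the step per length. ALDOA was at 1236, 1269 and 1428 CPM without DOX and at 1228, 1001 and 1101 CPM with DOX. The groups came close to touching, with the lowest DOX-negative library just above the highest DOX-positive one (log2 fold change -0.24, SE 0.0754, adjusted p = 0.0215). The call was lost without DOX-negative replicate 3 (adjusted p = 0.104), DOX-positive replicate 2 (adjusted p = 0.110) or DOX-positive replicate 3 (adjusted p = 0.0664). ALDOC was at 1.10 to 1.89 CPM, too low for a narrow interval (log2 fold change -0.21, 95% interval -0.87 to 0.44, adjusted p = 0.663).

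The next 3 enzymes interconvert the triose phosphates and carry out the oxidation and the first ATP-yielding reaction, and none of their genes passed the threshold. TPI1, the triose phosphate isomerase, was at 309, 323 and 329 CPM without DOX and at 338, 251 and 316 CPM with DOX. DOX-positive replicate 2 was the lowest library, and the groups overlapped (log2 fold change -0.09, 95% interval -0.25 to 0.08, adjusted p = 0.467). GAPDH was at 2008, 2017 and 2292 CPM without DOX and at 1964, 1822 and 1917 CPM with DOX. Its groups did not overlap, though the difference missed the threshold (log2 fold change -0.15, 95% interval -0.29 to -0.01, adjusted p = 0.115). With libraries scaled to total counts it passed (log2 fold change -0.18, adjusted p = 0.0391). The gene often used as a reference for transcript levels was thus 90.3% of its DOX-negative mean in CPM. PGK1, the phosphoglycerate kinase, was at 233, 241 and 262 CPM without DOX and at 259, 233 and 271 CPM with DOX. It overlapped and its interval lay within 0.2 of 0 (log2 fold change 0.05, 95% interval -0.09 to 0.19, adjusted p = 0.628). GAPDH has 62 annotated pseudogenes and TPI1 has 4, so reads shared with copies are uncertain for both; no GAPDH pseudogene had a row in the count table, while 2 of TPI1 had 54 to 126 counts.

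Phosphoglycerate mutase moves the phosphate of phosphoglycerate before water is removed, and its step fell more than any other. PGAM1, the main enzyme, was at 324, 309 and 363 CPM without DOX and at 145, 132 and 136 CPM with DOX. Every DOX-positive library was below 0.5 times the lowest DOX-negative one (log2 fold change -1.27, SE 0.0687, adjusted p = 1.68e-11). PGAM1 remained at 41.5% of its DOX-negative mean and was past the threshold in all 16 alternative settings, as were ADPGK and LDHA. BPGM, which makes and degrades the effector 2,3-bisphosphoglycerate, was at 16.2, 14.9 and 13.0 CPM without DOX and at 8.19, 9.93 and 8.81 CPM with DOX. It fell as well, without overlap (log2 fold change -0.71, SE 0.132, adjusted p = 0.000334). Both genes fell, and PGAM1 still held between 93.4% and 96.7% of the step per length in every library.

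The genes on either side of PGAM1 in the pathway, PGK1 and ENO1, did not pass the threshold. The ratio of PGAM1 to PGK1, the enzyme before it, was 1.62, 1.49 and 1.61 without DOX and 0.651, 0.661 and 0.587 with DOX on the TPM scale. Its ratio to ENO1, the enzyme after it, was 0.609, 0.511 and 0.625 without DOX and 0.251, 0.256 and 0.240 with DOX. Neither ratio overlapped between the groups (exact permutation p = 0.10, the smallest possible). PGAM4, a processed copy with a coding sequence 98.3% identical to that of PGAM1 (13 differing positions over 765 bases), was at 5.94, 4.19 and 6.17 CPM without DOX and at 1.79, 1.46 and 2.29 CPM with DOX. It fell too (log2 fold change -1.57, SE 0.236, adjusted p = 3.31e-05), at a level per length of 0.0146 to 0.0242 times that of PGAM1. Given this identity, reads of the pair cannot be told apart with certainty. PGAM1 also has 13 annotated pseudogenes, of which 1 had a row in the count table, with 1 to 3 counts.

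Enolase makes phosphoenolpyruvate. ENO1, the widespread form, made up between 94.8% and 96.2% of the step per length. ENO1 was at 952, 1083 and 1037 CPM without DOX and at 1034, 922 and 1017 CPM with DOX. It overlapped between the groups (log2 fold change -0.05, 95% interval -0.19 to 0.09, adjusted p = 0.654). ENO2, known as the neuronal form, was at 34.3, 39.1 and 36.5 CPM without DOX and at 26.5, 26.1 and 28.6 CPM with DOX. It fell without overlap (log2 fold change -0.44, SE 0.0896, adjusted p = 0.000842) and is the firmest fall among members without a copy of the heptamer. The step total, which is nearly all ENO1, did not pass (log2 fold change -0.06, SE 0.0673, adjusted p = 0.564).

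Pyruvate kinase yields pyruvate and ATP. PKM, the one member of this step, was at 1964, 2147 and 2089 CPM without DOX and at 2206, 1749 and 2070.4 CPM with DOX. The lowest and the highest library were both DOX-positive, and no difference was detected (log2 fold change -0.04, 95% interval -0.20 to 0.12, adjusted p = 0.738). The tables give genes, so the M1 and M2 isoforms of PKM were not separated.

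Lactate dehydrogenase joins pyruvate and lactate. Its subunits LDHA and LDHB form mixed tetramers, of which LDHA-rich ones are known to favour lactate production and LDHB-rich ones the return to pyruvate. LDHA was at 711, 754 and 833 CPM without DOX and at 370.3, 309 and 399.8 CPM with DOX. Every DOX-positive library was below every DOX-negative one (log2 fold change -1.09, SE 0.0807, adjusted p = 1.61e-09), and the gene remained at 47.0% of its DOX-negative mean. LDHB was at 322, 340.5 and 350.2 CPM without DOX and at 301, 298 and 313 CPM with DOX. Its groups did not overlap, but the difference was small and missed the threshold (log2 fold change -0.15, 95% interval -0.28 to -0.03, adjusted p = 0.0676). With libraries scaled to total counts (adjusted p = 0.0211) and with limma on rescaled TPM (adjusted p = 0.0496), LDHB was past it as a fall.

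The subunit that led the pool per length differed between the groups. The share of LDHA in the summed TPM of LDHA and LDHB was 56.1%, 56.2% and 58.0% without DOX and 41.6%, 37.5% and 42.6% with DOX. Thus LDHA led in all 3 DOX-negative libraries and LDHB in all 3 DOX-positive libraries. The ratio of LDHA to LDHB was 1.28, 1.28 and 1.38 without DOX and 0.712, 0.601 and 0.741 with DOX (exact permutation p = 0.10, the smallest possible). In read counts, which are not corrected for length, LDHA went from a mean of 69.4% to 54.1% and still led. The crossing of 50% is therefore a statement about TPM, while the drop of the share is seen on both scales. Relative to PKM, the enzyme before it, LDHA was at 0.50, 0.485 and 0.551 without DOX and 0.232, 0.244 and 0.267 with DOX in TPM. LDHA has 6 annotated pseudogenes and LDHB has 3, none of them with a row in the count table.

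**Figure D4:**
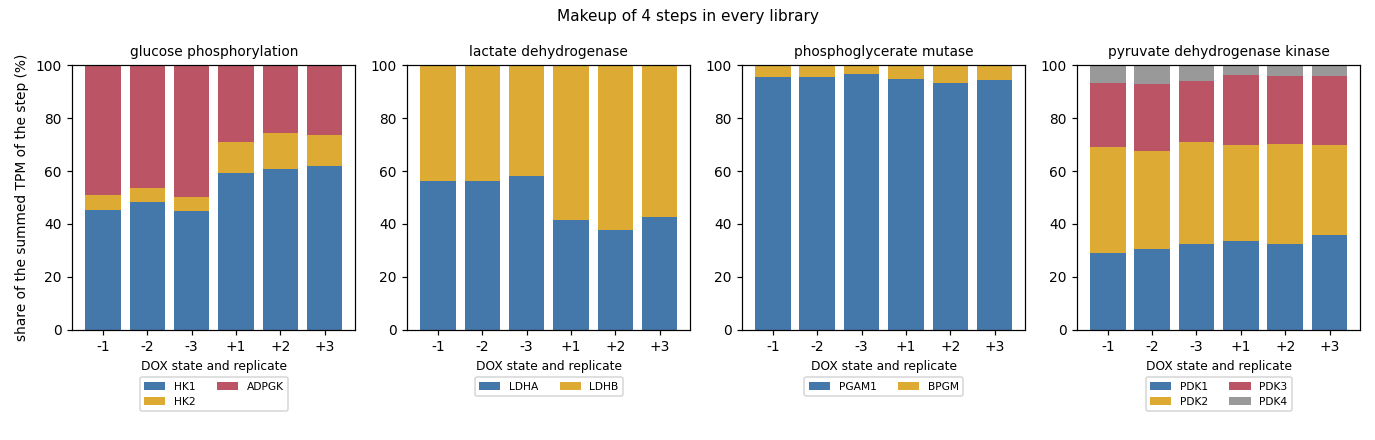
Share of each gene in the summed TPM of its step (vertical axis, percent) in each library (- marks DOX-negative and + DOX-positive, followed by the replicate number), for 4 steps. LDHA drops from 56.8% to 40.6% on average and ADPGK from 48.4% to 27.0%, while PGAM1 holds 93.4% or more of its step in every library.

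Lactate leaves through monocarboxylate transporters. SLC16A1, which encodes MCT1, was at 129, 134 and 132 CPM without DOX and at 138, 138 and 141 CPM with DOX. Although every DOX-positive library was above every DOX-negative one, the difference was far from the threshold (log2 fold change 0.08, 95% interval -0.05 to 0.21, adjusted p = 0.384). SLC16A3, which encodes the export-adapted MCT4, lay between 31.6 and 36.9 CPM in all libraries (log2 fold change -0.01, 95% interval -0.20 to 0.17, adjusted p = 0.94). SLC16A1 was at 1.83 to 2.14 times the TPM of SLC16A3 in every library. Both intervals allow changes of up to 0.21 in size on the log2 scale.

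**Figure D5:**
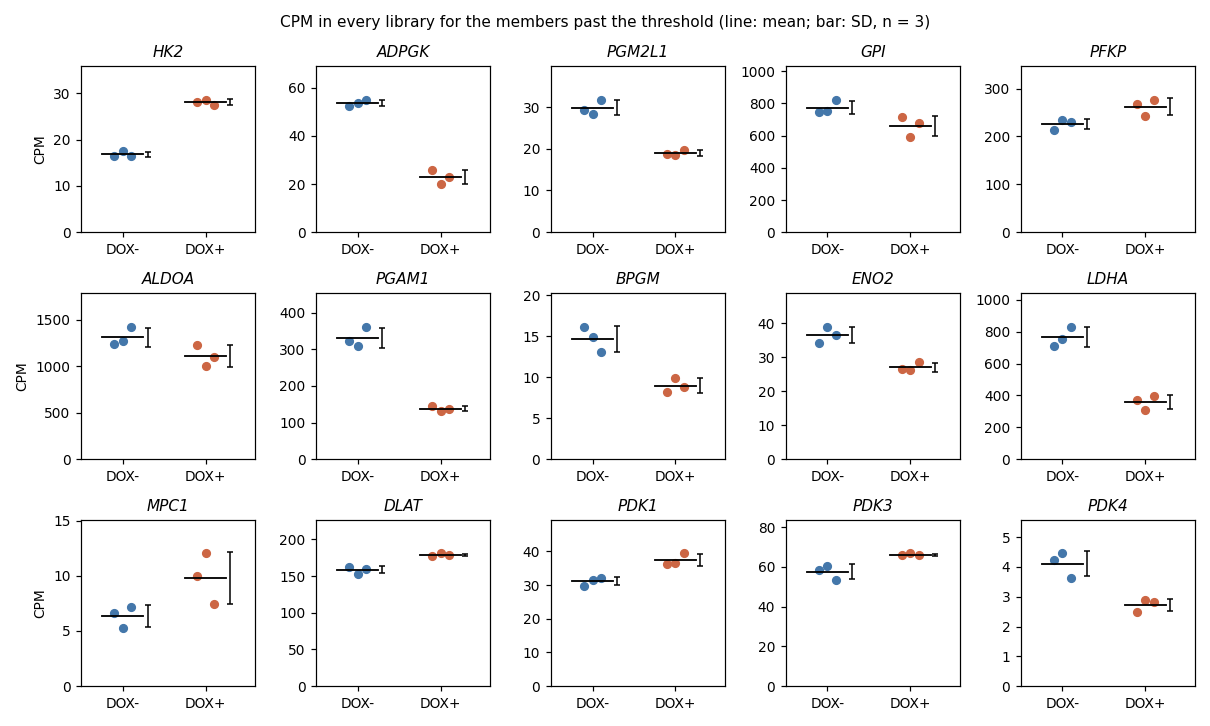
CPM of the 15 members past the threshold in each library (points; vertical axes start at 0), with group means (lines) and SD (bars; n = 3 per group). The gaps are wide for ADPGK, PGAM1, LDHA and HK2, and narrow for GPI, PFKP, ALDOA and DLAT; for MPC1 the lowest DOX-positive library (7.40 CPM) is just above the highest DOX-negative one (7.16 CPM).

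The other fate of pyruvate is entry into mitochondria through a carrier built of MPC1 and MPC2. MPC1 was at 6.61, 5.27 and 7.16 CPM without DOX and at 9.98, 12.0 and 7.40 CPM with DOX. The groups were separated by a narrow margin (log2 fold change 0.64, SE 0.173, adjusted p = 0.00874), and the call was lost without DOX-positive replicate 2, the highest library (log2 fold change 0.47, adjusted p = 0.0514). MPC2, the more abundant subunit per length, was at 44.5, 43.2 and 46.4 CPM without DOX and at 52.4, 51.7 and 50.4 CPM with DOX. Its groups did not overlap, and it just missed the threshold (log2 fold change 0.20, 95% interval 0.04 to 0.37, adjusted p = 0.0534). It passed with DESeq2 (adjusted p = 0.0484) and with counts thinned to the smallest library (adjusted p = 0.0313). The share of MPC1 in the pair overlapped between the groups (22.5%, 19.3% and 23.2% without DOX and 27.2%, 31.3% and 22.3% with DOX).

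The pyruvate dehydrogenase complex converts pyruvate to acetyl-CoA. Of its genes, only DLAT passed the threshold. DLAT, the acetyltransferase core and the leading gene per length, was at 163, 153 and 159.6 CPM without DOX and at 178, 181 and 179 CPM with DOX. The rise was small (log2 fold change 0.18, SE 0.0614, adjusted p = 0.0379) and was lost whichever library was left out (adjusted p from 0.0645 to 0.0989). DLD, the shared dehydrogenase subunit, did not overlap between the groups but missed the threshold (log2 fold change 0.15, 95% interval 0.01 to 0.29, adjusted p = 0.118). PDHA1 (log2 fold change -0.01, 95% interval -0.23 to 0.20, adjusted p = 0.937) and PDHB (log2 fold change 0.06, 95% interval -0.20 to 0.31, adjusted p = 0.788), the subunits of the decarboxylase, overlapped. PDHX, which anchors DLD to the core, also overlapped, with a log2 fold change of -1.26e-05 and a 95% interval from -0.18 to 0.18.

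The pyruvate dehydrogenase kinases switch the complex off by phosphorylating it, and their genes moved in both directions. PDK1, known as a target of hypoxia signalling, was at 29.8, 31.4 and 32.1 CPM without DOX and at 36.2, 36.5 and 39.4 CPM with DOX. It rose without overlap (log2 fold change 0.26, SE 0.0854, adjusted p = 0.0267), a call lost without DOX-negative replicate 1 (adjusted p = 0.116) or DOX-positive replicate 3 (adjusted p = 0.117). PDK3 was at 58.4, 60.6 and 53.3 CPM without DOX and at 65.8, 66.7 and 65.9 CPM with DOX. Its groups did not overlap either, and it was barely past the threshold (log2 fold change 0.20, SE 0.0753, adjusted p = 0.0495). That call was kept only without DOX-negative replicate 2, and over the 6 fits the adjusted p ranged from 0.0342 to 0.197.

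PDK4, induced by fasting and fatty acids in many tissues, was the kinase that fell. It was at 4.24, 4.45 and 3.63 CPM without DOX and at 2.48, 2.87 and 2.82 CPM with DOX. The groups did not overlap (log2 fold change -0.59, SE 0.213, adjusted p = 0.0422). Its call was lost without DOX-negative replicate 1 (adjusted p = 0.112), DOX-negative replicate 2 (adjusted p = 0.129), DOX-positive replicate 1 (adjusted p = 0.138) or DOX-positive replicate 3 (adjusted p = 0.0784). PDK2 was at 23.3, 21.6 and 21.4 CPM without DOX and at 22.0, 23.8 and 20.9 CPM with DOX and overlapped (log2 fold change 0.01, 95% interval -0.19 to 0.22, adjusted p = 0.952). Per length PDK2 led the kinases in all 3 DOX-negative libraries, while with DOX either PDK2 or PDK1 led. In read counts PDK3 led on average in both groups, with 50.0% without DOX and 51.5% with DOX, beside 19.3% and 17.3% for PDK2. The share of PDK4 was 6.65%, 6.99% and 5.94% without DOX and 3.74%, 4.15% and 4.18% with DOX.

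A further list of 64 genes of the same pathways was examined for context: other transporters and isoforms, opposing enzymes, phosphatases of the complex, NADH shuttles and citrate cycle entry. Of these, 47 were tested and 14 passed the threshold, or 29.8%, beside 26.7% of all genes. Of them 7 were higher and 7 lower, and the median log2 fold change of the list was -0.05. The 6 with the largest changes included PGAM4, given above. HKDC1, a further hexokinase-related gene, was at 8.48, 8.54 and 6.27 CPM without DOX and at 3.49, 4.34 and 3.29 CPM with DOX and fell (log2 fold change -1.06, adjusted p = 0.000184). SLC16A7, which encodes the transporter MCT2, was at 10.1, 8.34 and 9.50 CPM without DOX and at 4.40, 4.96 and 5.18 CPM with DOX and fell (log2 fold change -0.95, adjusted p = 0.000103). It holds the heptamer in its 3′UTR and in its coding sequence. Of the 5 genes of this list with a 3′UTR copy it is the 1 that fell, while SLC2A11, SLC2A13, PGM3 and MDH2 did not pass the threshold. SLC2A10, which encodes GLUT10, was at 12.9, 14.1 and 14.4 CPM without DOX and at 9.89, 9.40 and 5.85 CPM with DOX and fell (log2 fold change -0.70, adjusted p = 0.00179). HKDC1 and SLC2A10 hold no copy of the heptamer.

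The other two of these genes rose. TXNIP, which restrains glucose uptake, was at 2.81, 2.86 and 2.54 CPM without DOX and at 3.88, 5.49 and 4.71 CPM with DOX (log2 fold change 0.77, adjusted p = 0.0093). PDP1, a phosphatase that switches the pyruvate dehydrogenase complex back on, was at 219.8, 199 and 224 CPM without DOX and at 343, 394 and 352 CPM with DOX (log2 fold change 0.76, adjusted p = 2.95e-08). Thus the phosphatase gene PDP1 and the kinase genes PDK1 and PDK3, whose products act on the complex in opposite ways, were all higher with DOX, and PDK4 was lower. The calls of PDK1, PDK3 and PDK4 were lost when certain single libraries were left out, and with the replicate number as a block. Of the 10 genes of the cytosolic NADH shuttles, 1 rose and 1 fell, or 20.0% called, and of the 7 genes of citrate cycle entry 2 rose and none fell, or 28.6% called. Both shares are near the 26.7% of all genes. Among the other lactate and pyruvate carriers and their partners, 3 genes were tested and 2 passed (66.7%), 1 higher and 1 lower. SLC16A7 fell, as given above, and EMB rose (log2 fold change 0.22, adjusted p = 0.0391). BSG, whose product brings MCT1 and MCT4 to the membrane, did not pass (log2 fold change -0.05, 95% interval -0.22 to 0.12, adjusted p = 0.691).

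Promoter sequences were read for the members because MYC, which binds the E-box CACGTG, and hypoxia-inducible factors, which bind the core ACGTG, are known regulators of glycolytic genes. The 250 bases before each annotated start were taken from RefSeq on GRCh38.p14, and 37 of the 40 members were matched; SLC2A3, PFKFB2 and SLC16A1 were not. Both strands were searched, and each E-box also contains the shorter core. An E-box was present in 9 of the 37 members (24.3%), beside 7.73% of all genes. All genes are here the 27305 with such a window, including genes not tested in these libraries. Expressed genes were not set apart. By window, since a gene can have several starts, the shares were 12.7% and 6.34%. The core ACGTG was present in 22 of the 37 members (59.5%), beside 21.7% of all genes, or in 35.2% of member windows beside 18.5% of all windows. Windows of several starts of a gene can overlap, and a match is a description of these letters only.

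Windows are shown for PGAM1, the member with the largest fall, HK2, the member with the largest rise, and LDHA. They were chosen because HK2 and LDHA hold the E-box in 1 of their windows and the only window of PGAM1 holds none. Sequence outside the windows was not searched. LDHA, which fell, and HK2, which rose, each have 2 E-boxes (in capitals) before 1 of their 2 annotated starts and none before the other. PGAM1 has none in its window. All 3 windows are on the plus strand: chr11:18394313-18394562 for the first annotated start of LDHA, chr2:74834920-74835169 for the second annotated start of HK2, and chr10:97427568-97427817 for PGAM1. Which start the cells use is not given by these tables.
LDHA: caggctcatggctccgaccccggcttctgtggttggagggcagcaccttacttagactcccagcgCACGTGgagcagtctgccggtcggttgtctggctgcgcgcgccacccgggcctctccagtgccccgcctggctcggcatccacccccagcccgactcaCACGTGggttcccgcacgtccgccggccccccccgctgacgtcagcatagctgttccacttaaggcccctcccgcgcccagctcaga
HK2: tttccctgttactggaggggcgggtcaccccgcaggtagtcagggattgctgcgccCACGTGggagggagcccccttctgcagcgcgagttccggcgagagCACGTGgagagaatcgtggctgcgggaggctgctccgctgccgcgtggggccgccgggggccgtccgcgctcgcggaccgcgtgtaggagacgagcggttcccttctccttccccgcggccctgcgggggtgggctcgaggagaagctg
PGAM1: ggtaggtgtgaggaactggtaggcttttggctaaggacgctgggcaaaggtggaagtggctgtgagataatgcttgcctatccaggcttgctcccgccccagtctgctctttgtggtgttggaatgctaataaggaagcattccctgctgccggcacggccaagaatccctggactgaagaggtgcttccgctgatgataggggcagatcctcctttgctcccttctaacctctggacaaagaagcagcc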

How the data were processed

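Samples were assigned to DOX_negative and DOX_positive by their titles, and table columns by DOX state and replicate number. Per the labels and the study's methods, libraries were poly(A)-selected and stranded; the processing notes name STAR, DESeq2 and the build GRCh38 (hg38), and whether counting used strand is not given in the sources used here. The authors deposited whole-number read counts for 28008 genes and, for 25546 genes, TPM values. The authors' TPM was held in large and unequal part by short noncoding RNAs in every library, so levels were rescaled without RN7SL1, RN7SL2, RN7SL3, RN7SK and RPPH1. Members and lists were chosen with earlier results of these data known.

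Counts were fitted in R 4.3.3 with edgeR 4.0.16 (filterByExpr, TMM factors 0.986 to 1.03, glmQLFit and glmQLFTest, two-sided, Benjamini-Hochberg). Errors (SE) were derived from each gene's F statistic and log2 fold change, and 95% intervals use the same error. Floors cover counting error only. Where nothing says that cultures were independent, p-values measure the spread between these samples. Named genes were all members, MUC1, and the 6 largest called changes of the other pathway list. BSG, EMB, SLC2A11, SLC2A13, PGM3 and MDH2 were added after their values were seen. Alternatives were scaling by RLE factors or by total counts, DESeq2 1.42.0, a block on replicate number, all genes kept, only genes with 10 or more counts per library, thinned counts, limma 3.58.1 on log2(TPM + 1), log2(TPM + 0.1) and rescaled log2(TPM + 1), and each library left out. TPM fold changes on that scale understate low genes. No 2 libraries of a group were alike within counting noise (chi-square per degree of freedom 3.76 to 20.2). Fits were tested on simulated data. Heptamers were counted in 1 GENCODE 29 protein-coding transcript per gene, the principal one with the longest 3′UTR.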

Additional observations from a re-analysis of the deposited data

How the results depend on the processing

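MUC1 and the falls of PGAM1, LDHA and ADPGK kept their direction and their call under all 16 alternatives. With the deposited TPM, whose scaling moved the median log2 fold change of all genes by -0.32 (pseudocount 1) and -0.39 (pseudocount 0.1), 443 and 408 genes passed the threshold, 3 and 4 members passed, 0 and 0 rose, 3 and 4 fell, and 3 and 2 other pathway genes passed. At pseudocount 1 the log2 fold change turned negative for SLC2A1 (-0.22), PGM1 (-0.32), PGM2 (-0.29), PFKL (-0.30), PFKP (-0.18), PFKFB2 (-0.22), PFKFB3 (-0.29), PFKFB4 (-0.17), PGK1 (-0.34), SLC16A1 (-0.31), MPC2 (-0.18), PDHB (-0.31), DLAT (-0.21), DLD (-0.24), PDK1 (-0.12), PDK2 (-0.35) and PDK3 (-0.17). At pseudocount 0.1 the same 17 genes were at -0.22, -0.34, -0.30, -0.31, -0.18, -0.23, -0.32, -0.23, -0.34, -0.31, -0.19, -0.33, -0.22, -0.24, -0.13, -0.38 and -0.19, in that order. Members that rose numbered 2 with rescaled TPM, 3 with total counts and 2 with the replicate block, beside 6. Genes near 0 changed sign: PDHX was at 0.0036 with DESeq2, 0.0039 with RLE factors, 0.0016 with no filter, 0.00057 with the replicate block and 0.012 with thinned counts; PDK2 was at -0.016 with rescaled TPM, -0.022 with thinned counts and -0.024 with total counts; SLC16A3 was at 0.029 and PDHA1 at 0.011 with thinned counts.

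With each library left out in turn, between 9 and 14 members passed, the 9 without DOX-positive replicate 3, and between 2 and 6 rose. Of all genes, between 2784 and 3645 passed in these fits, and 3107 without DOX-positive replicate 3. Ranges that crossed 0 were -0.045 to 0.056 for HK1, -0.0083 to 0.14 for PFKFB3, -0.18 to 0.029 for TPI1, -0.10 to 0.0015 for ENO1, -0.11 to 0.048 for PKM, -0.072 to 0.038 for SLC16A3, -0.069 to 0.074 for PDHA1, -0.0086 to 0.15 for PDHB, -0.037 to 0.030 for PDHX and -0.040 to 0.050 for PDK2. The step totals of triose phosphate isomerase (-0.18 to 0.029) and pyruvate kinase (-0.11 to 0.048) did the same. Cultures share replicate numbers, but same-numbered libraries did not deviate together (r = -0.05, -0.12 and -0.03), and 0 of 3 DOX-negative libraries correlated best with their own number. The replicate block gave 10 members, all among the 15, and 3158 genes, 3136 of them shared; PFKP, DLAT, PDK1, PDK3 and PDK4 were past the threshold only without it, as was the step total of glucose phosphorylation. Calls were gained by GAPDH and LDHB with total counts, LDHB with rescaled TPM and MPC2 with DESeq2 and thinned counts, and by the step totals of glyceraldehyde 3-phosphate dehydrogenase with total counts (adjusted p = 0.0390) and the pyruvate dehydrogenase kinases with DESeq2 (adjusted p = 0.0494). The cause of these differences was not tested. At these depths genes near the floor, such as SLC2A3, could not be compared.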
